A study of Homo sapiens with 10 samples.

Results

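The mitochondrial ribosomal protein genes were taken as the protein-coding genes whose current symbol is MRPL or MRPS followed by a number, matched to the deposited gene entries by Ensembl ID. Of 78 such symbols in GENCODE 44, 76 matched an entry, 48 MRPL and 28 MRPS genes, out of 26346 genes listed in each library. All 76 were among the 13630 genes tested. MRPL45 and MRPS21 had no match by ID and were not analysed here.

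EndoC-βH1, a human beta cell line derived from fetal pancreas that makes insulin, was grown on coated plates, and its polyadenylated RNA was sequenced. SRp55 is a serine- and arginine-rich splicing factor encoded by SRSF6, and the study examined the splicing network under its control. The groups were 5 libraries of cells that received an siRNA against SRp55 (siSR#2) and 5 libraries of cells that received a control siRNA. Per the design text the preparations were independent, all came from this one line, and a single siRNA sequence against SRp55 was used in these libraries.

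Mitochondria carry their own ribosomes, which translate the few messages encoded by mitochondrial DNA, all of them for membrane subunits of the respiratory chain and ATP synthase. Nearly all other parts of these ribosomes are proteins encoded in the nucleus, made in the cytosol and imported, and they are assembled on mitochondrial ribosomal RNA into a small subunit, which reads the message, and a large subunit, which joins amino acids. In beta cells, respiration driven by glucose makes the ATP that couples glucose to insulin release.

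The siRNA target was lower in the SRp55 siRNA libraries. SRSF6 had 21.0 to 31.1 RPKM (reads per kilobase of transcript and per M reads, summed over a gene's transcripts; M is 10 to the power 6) with SRp55 siRNA, against 92.4 to 100.0 RPKM with control siRNA. Log2 fold changes below are SRp55 siRNA over control siRNA, with the change of the median tested gene subtracted, which was 0.11 on the log2 scale. They come from log2(RPKM + 0.5), which understates the change of low genes. Calls are at 0.05 on the adjusted p of limma (Benjamini-Hochberg over all genes tested), which was computed before that subtraction. Reads assigned to transcripts numbered 94.7 to 189.8 M per library with SRp55 siRNA and 61.9 to 159.2 M with control siRNA, and made up 87.0% ± 7.24 of the total behind the RPKM with SRp55 siRNA and 82.1% ± 6.82 with control siRNA (SD, n = 5 each). Of the beta cell markers INS, PDX1, NKX6-1, NKX2-2, MAFA, IAPP, SLC30A8, PCSK1 and CHGA, all 9 were detected. Of these, 1, SLC30A8, was called, higher with a log2 fold change of 1.04, and 0 were called lower. With the replicate block IAPP, PDX1 and NKX6-1 were also called, lower (adjusted p = 0.010, 0.028 and 0.0081), as were IAPP, PDX1 and NKX2-2 on summed reads and PDX1 under median-of-ratios scaling. Of markers of other cells, GCG, PPY, GHRL, PRSS1, CELA3A, CFTR, COL3A1, VWF and PTPRC were under 0.5 RPKM and SST, CPA1, KRT19, COL1A1 and CD68 above it, with none of these called.

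Within the family, MRPS27 was lower with SRp55 siRNA and no other member was called. MRPS27 is a small-subunit protein found in mitochondrial but not bacterial ribosomes, a member of the pentatricopeptide repeat proteins, which bind RNA, and is needed for mitochondrial translation. Of the 76 members, 0 were called higher, 1 was called lower and 75 were not called. Over all 13630 tested genes, 5.02% were called, 3.76% higher and 1.25% lower. At an unadjusted p under 0.05 there were 9 members higher and 1 lower, against 16.4% and 5.5% of all tested genes. Under median-of-ratios scaling 2 members were called (3.18% of all genes higher and 3.67% lower), on summed reads 3 (7.3% and 9.87%), and with the replicate number as a block 4 (9.39% and 3.7%), and those added were higher in each case. The split of all calls itself depended on the scaling, with 433 genes higher and 500 lower under that scaling, against 513 and 171 as deposited.

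MRPS27 (ENSG00000113048.12) lies on the minus strand of chromosome 5, from 71515236 to 71616473 in GRCh37. It had 9.54, 14.2, 8.70, 10.3 and 7.46 RPKM with SRp55 siRNA, against 20.1, 24.9, 23.7, 28.1 and 23.7 RPKM with control siRNA. Each of the 5 SRp55 siRNA libraries lay below each control library. The means were 10.03 ± 2.54 RPKM with SRp55 siRNA and 24.1 ± 2.88 RPKM with control siRNA (SD, n = 5 each), the log2 fold change was -1.36 (SE 0.16) and the adjusted p was 0.0029. This was the 10th lowest log2 fold change of the 13630 genes tested. MRPS27 was singled out with earlier results of these data known. Its rank, p-values and distance from its family are thus descriptions, not independent support. The exact two-sided permutation p over the 10 libraries was 0.00794, the lowest that 5 against 5 allow when libraries are exchanged freely. Exchange within the 5 pairs of equal number cannot give less than 0.0625, so pairing was taken into account by the replicate block in limma, where the adjusted p of MRPS27 was 0.0091. In these bulk libraries, fewer cells expressing a gene and less RNA per cell cannot be told apart.

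Summed reads gave the same picture. MRPS27 had 20.3, 26.97, 25.9, 28.0 and 20.7 reads per M assigned with SRp55 siRNA, against 52.8, 63.6, 64.6, 65.5 and 68.4 with control siRNA, so the level with SRp55 siRNA was 38.7% of the control level. On this scale too the groups did not overlap, and the spread within each was narrower than in RPKM. The share of all tested genes whose groups do not overlap in reads was not counted. MRPS27 took 0.386% ± 0.107 of the summed RPKM of the family with SRp55 siRNA and 1.10% ± 0.215 with control siRNA. Ranked by level among the 76 members, with 1 the highest, it stood between 61 and 75 in the SRp55 siRNA libraries and between 25 and 48 in the control libraries. The family as a whole summed to 2630 ± 415 RPKM with SRp55 siRNA and 2258 ± 509 RPKM with control siRNA, and these ranges overlapped. In reads per M assigned the sums were nearer to each other, at 3110 ± 212 with SRp55 siRNA and 2992 ± 228 with control siRNA. Those ranges overlapped too.

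**Figure D1:**
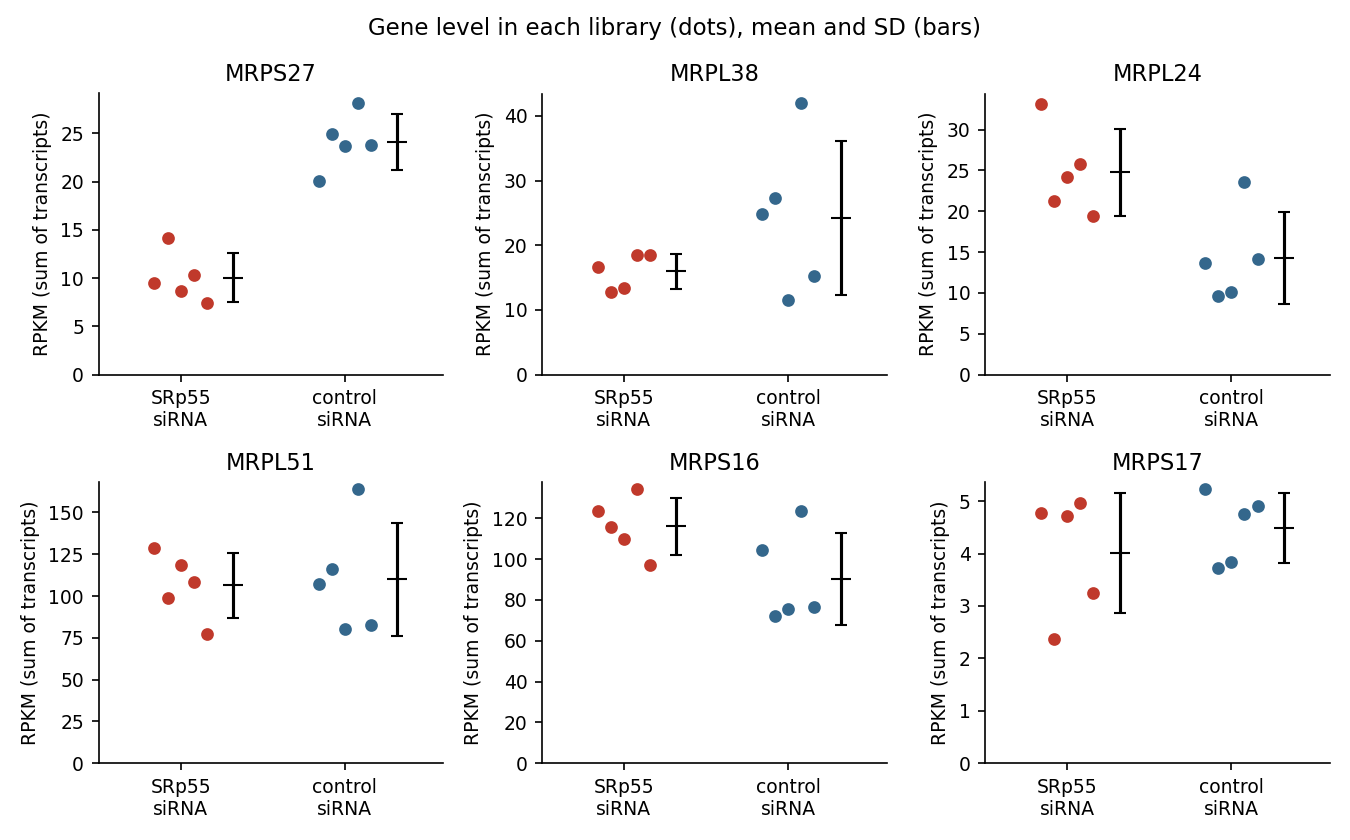
Level in RPKM (y axis, sum of transcripts) of 6 family members in each library, SRp55 siRNA left and control siRNA right of each panel, with dots for libraries and bars for the mean ± SD (n = 5 each). MRPS27 separates the groups, whereas the groups overlap for MRPL38, MRPL24, the abundant MRPL51 and MRPS16 and the scarce MRPS17.

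Set beside its family, MRPS27 stood apart in size. The log2 fold changes of the other 75 members ran between -0.57 for MRPL38 and 0.71 for MRPL24, and 73 of the 75 lay within 0.5 of the median tested gene. Their adjusted p-values were between 0.067 and 0.995. MRPS27 was the only member whose groups did not overlap in RPKM, whereas 7.92% of all tested genes had groups that did not overlap, 2.32% with SRp55 siRNA lower. The median over the 76 members was 0.09, with 52 above and 24 below the median tested gene, whose own value is 0 by this centring. That median rested on single libraries, at 0.02 without SRp55 siRNA library 1, 0.14 without SRp55 siRNA library 2 and 0.05 without control library 2. MRPS27 had the lowest log2 fold change of the family under every one of the 18 alternatives run. The distance to the next member was not kept in all of them. With protein_coding transcripts alone MRPS27 was at -1.19 and MRPL30 close to it at -1.13 (limma adjusted p = 0.096, not called).

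**Figure D2:**
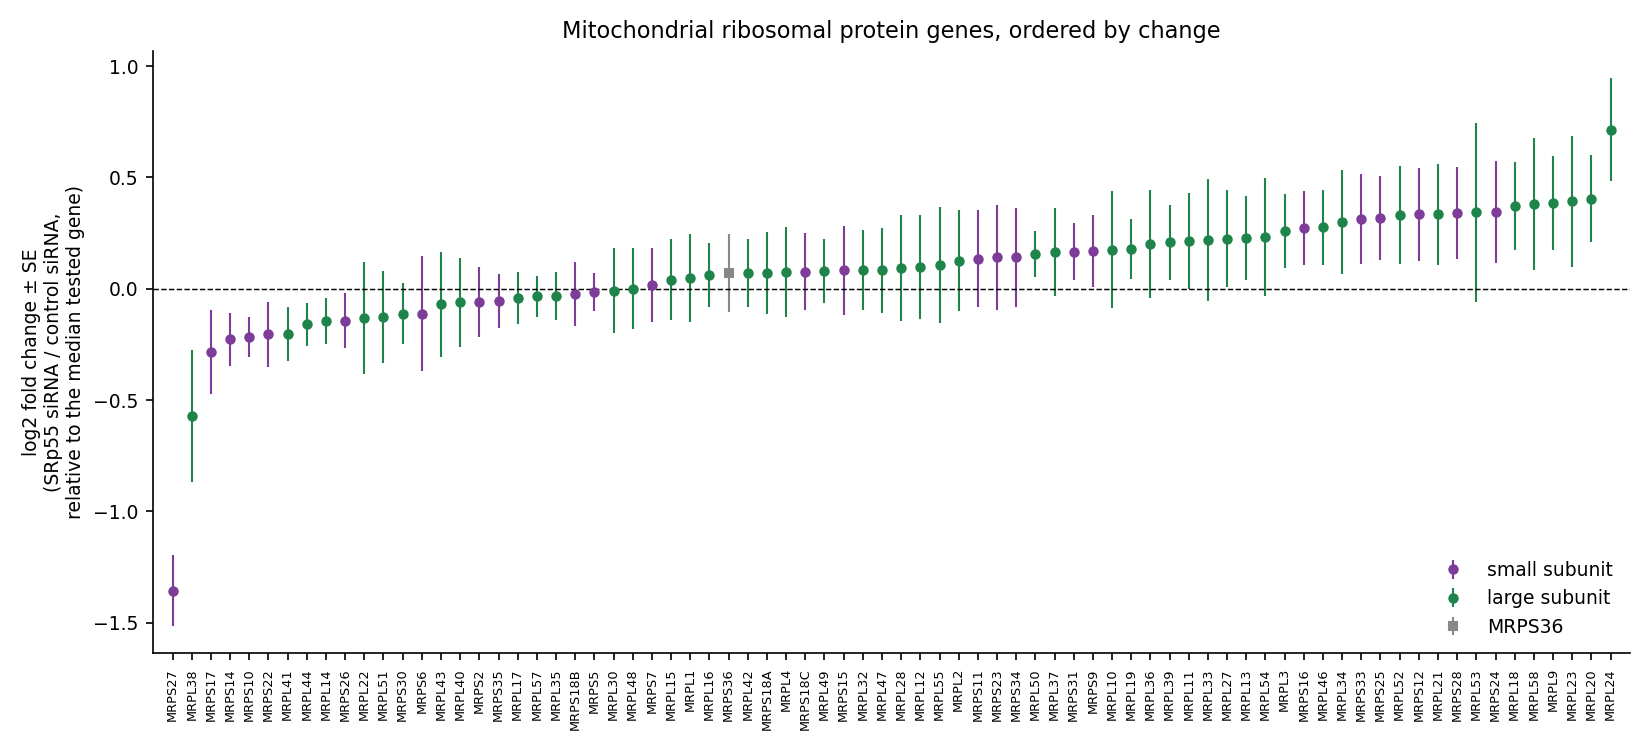
Log2 fold change (SRp55 siRNA over control siRNA, relative to the median tested gene) ± SE of each of the 76 members, ordered from lowest to highest, with small-subunit proteins in purple, large-subunit proteins in green and MRPS36 in grey. MRPS27 at -1.36 lies apart from the rest, which run from MRPL38 at -0.57 to MRPL24 at 0.71.

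The same held within most pairs of libraries that carry the same replicate number. Relative to the median tested gene of each pair, MRPS27 changed by -1.17, -0.93, -1.55, -1.38 and -1.68 on the log2 scale in pairs 1 to 5. It was the lowest member in pairs 1, 3 and 5 and the second lowest in pairs 2 and 4. In pair 2 MRPL38 was lower, at -1.22, and in pair 4 MRPL53, a protein of the large subunit, was lower, at -1.65. Neither kept that place across pairs, and MRPL53 was the highest member in pair 1, at 1.16.

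**Figure D3:**
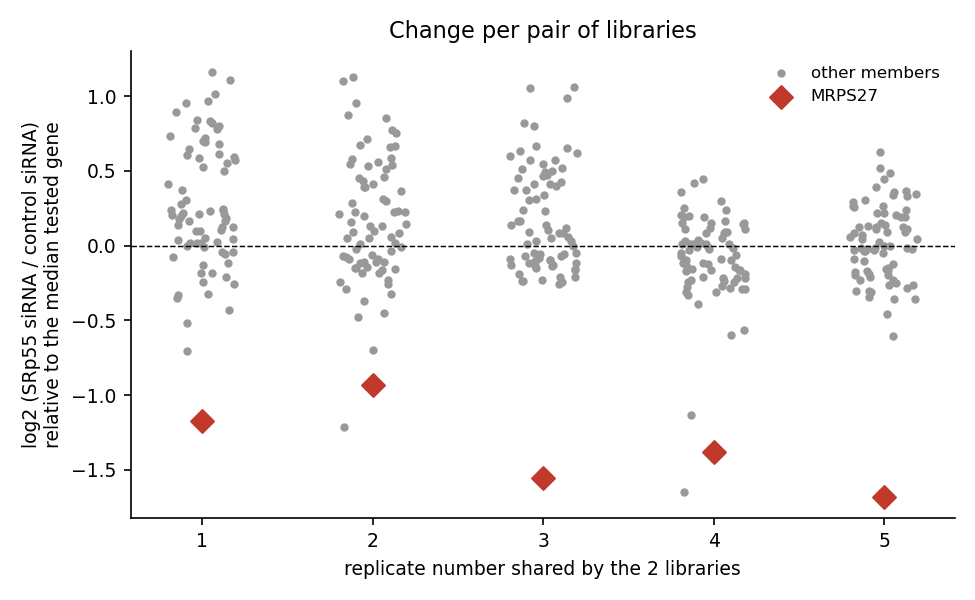
Log2 ratio of SRp55 siRNA over control siRNA (y axis, relative to the median tested gene of that pair) for each member within each pair of libraries that share a replicate number (x axis), with MRPS27 as red diamonds and the other 75 members as grey dots. MRPS27 lies between -0.93 and -1.68 in all 5 pairs.

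MRPS27 has 16 transcripts in the files, of which 5 reached a mean of 0.5 RPKM in at least one group. The fall was carried by the main coding transcript and by the others together. ENST00000261413.5, the coding transcript of 2785 bases, had 6.0, 6.32, 7.46, 8.33 and 3.67 RPKM with SRp55 siRNA, against 13.7, 13.7, 15.2, 15.9 and 12.02 RPKM with control siRNA. The groups did not overlap, and the transcript was lower in all 5 pairs. The other transcripts together summed to 3.67 ± 2.57 RPKM with SRp55 siRNA and 10.02 ± 2.49 RPKM with control siRNA, with overlapping ranges of 1.24 to 7.85 RPKM with SRp55 siRNA and 6.38 to 12.2 RPKM with control siRNA. ENST00000515404.1, annotated as retaining an intron, had 0.97, 1.00, 0.61, 1.07 and 0.18 RPKM with SRp55 siRNA, against 3.18, 7.67, 7.01, 0.09 and 5.40 RPKM with control siRNA. Control library 4 thus lay below every SRp55 siRNA library for this transcript, while the other 4 control libraries lay above them. The coding transcript held 64.7% ± 18.5 of the gene's RPKM with SRp55 siRNA and 58.8% ± 7.15 with control siRNA, and the test of transcript usage did not call MRPS27 (adjusted p = 1.00).

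**Figure D4:**
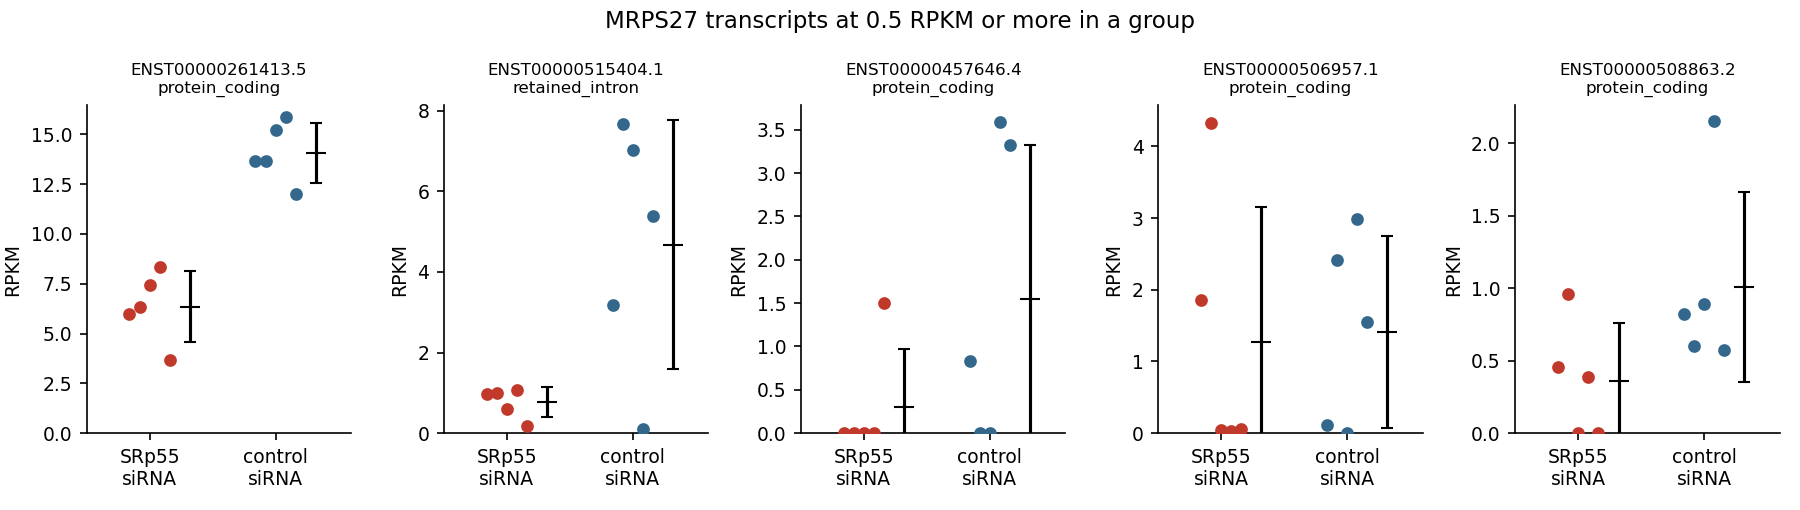
RPKM (y axis) of the 5 MRPS27 transcripts that reached a mean of 0.5 RPKM in a group, SRp55 siRNA left and control siRNA right of each panel, with dots for libraries and bars for the mean ± SD (n = 5 each), the lower end of a bar stopping at 0. ENST00000261413.5 is lower in all 5 SRp55 siRNA libraries (3.67 to 8.33 RPKM) than in any control library (12.02 to 15.9 RPKM).

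MRPS27 shares its start region with PTCD2, which lies on the opposite strand and encodes another mitochondrial pentatricopeptide repeat protein, known in mice for the processing of cytochrome b RNA. In RefSeq (GRCh38.p14) the 2 genes start 132 bases apart, head to head. The stretch between the starts is shown because both genes read away from it and only MRPS27 was called; it is chr5:72320241-72320372, given on the MRPS27 strand, and it is 64.4% G and C.
MRPS27 and PTCD2 start region: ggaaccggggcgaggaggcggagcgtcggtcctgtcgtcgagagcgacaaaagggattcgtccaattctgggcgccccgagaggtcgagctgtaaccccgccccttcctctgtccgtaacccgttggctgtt
PTCD2 had 5.30, 5.59, 5.27, 4.97 and 4.93 RPKM with SRp55 siRNA, against 4.6, 3.89, 4.67, 4.44 and 7.14 RPKM with control siRNA. The groups overlapped, and the log2 fold change was -0.01 (SE 0.14, adjusted p = 0.74). In the files' GRCh37 spans the 2 genes overlap by 280 bases at their starts. Use of strand in the assignment of reads is not given in the sources used here, so reads from those bases may fall to either gene.

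The 3′ UTR of MRPS27 holds the word CAGGCTT at 2 places. This word was taken from earlier results of these data, where it went with lower levels over all genes, so its presence here is a description. The AGGCTT part of the word starts at positions 357 and 677 of the 1506-base 3′ UTR of ENST00000261413.10 (GENCODE 44, GRCh38), 320 bases apart. The 30-base stretches printed below lie at chr5:72220535-72220564 and chr5:72220215-72220244 on the minus strand. These stretches are shown, with those of 3 members that were not called, to let the flanks be compared, and capitals mark the word. The 3 are only a part of the members with the word. MRPL43, MRPL57, MRPS18C, MRPL19 and MRPS16 also hold it, and they were not called either. Their log2 fold changes ran between -0.07 for MRPL43 and 0.27 for MRPS16.
MRPS27, position 357: aggttgaagcaCAGGCTTttgttttttgtt
MRPS27, position 677: ccggccaagcaCAGGCTTttgaatggtctc
MRPL10: ctgctgtgtgcCAGGCTTtgtgctgagtgc
MRPL47: tgacatttaagCAGGCTTtaaatgtcacct
MRPS25: gggtttgagttCAGGCTTgacacaggagca
The other 3 stretches lie at chr17:47823763-47823792, chr3:179588616-179588645 and chr3:15050297-15050326, each on the minus strand. Both MRPS27 sites share a run of 15 bases, aagcaCAGGCTTttg, which none (0) of the 28 AGGCTT sites in the 3′ UTRs of other members holds. The run was taken from the MRPS27 sites themselves, and most of the 28 lack CAGGCTT, so its absence elsewhere carries no weight.

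Members of this family with the word were not lower by their median than members without it. CAGGCTT was found in the 3′ UTR of 9 of the 76 members (11.8%), against 1945 of 12635 tested genes with an annotated 3′ UTR (15.4%). The median log2 fold change was 0.08 for the 9 members with the word, of which 1 was called, and 0.09 for those without it. Over all genes the medians were -0.08 with the word and 0.02 without it, and the median 3′ UTR lengths were 3092 and 1099 bases. The median 3′ UTR of the members is 458.5 bases. MRPL10, MRPL47 and MRPS25, whose sites are printed above, had log2 fold changes of 0.18, 0.08 and 0.32. MRPL57 was the other member with more than one copy of CAGGCTT, and the only one with AGGCTTA, and its log2 fold change was -0.03 (adjusted p = 0.68).

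Promoters of the family were searched in RefSeq (GRCh38.p14), from 250 bases before to 50 bases after the start, and 67 members had an entry. The word CCGGAAG, or its reverse complement CTTCCGG, the core bound by ETS factors, was in 28 of the 67 (41.8%) and in 14.2% of 15843 coding promoters. The word AAGATGG, or CCATCTT, which is bound by YY1, was in 22 of the 67 (32.8%) and in 6.40% of coding promoters. The window of MRPS27 holds the second word and not the first. Members with and without the first word had median log2 fold changes of 0.12 and 0.08, and members with and without the second had 0.08 and 0.09.

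The small subunit counts 25 of the members, of which 14 lay above and 11 below the median tested gene, with a median log2 fold change of 0.08. After MRPS27, its lowest members were MRPS17, MRPS14, MRPS10 and MRPS22, which had log2 fold changes of -0.29, -0.23, -0.22 and -0.21 and adjusted p-values between 0.522 and 0.744. The first 3 are homologues of bacterial small-subunit proteins and MRPS22 is specific to mitochondria. MRPS14 had 17.9, 17.3, 22.6, 23.0 and 17.6 RPKM with SRp55 siRNA, against 23.5, 19.2, 20.9, 23.2 and 19.7 RPKM with control siRNA, and these values overlapped. In reads per M assigned, MRPS14 had 34.0 to 45.2 with SRp55 siRNA and 45.3 to 50.3 with control siRNA, which touch without overlap, at an adjusted p of 0.074 on that scale. Non-overlap in reads has no background over all genes here. In plain RPKM MRPS10 was lower in all 5 pairs, at 17.4 ± 1.40 RPKM with SRp55 siRNA and 18.7 ± 0.554 RPKM with control siRNA. This difference was about the size of the spread. Relative to the median tested gene of each pair, MRPS10 was at 0.01 on the log2 scale in pair 4 and negative in the other pairs. At the upper end, MRPS16 and MRPS25 had an unadjusted p under 0.05 but adjusted p-values of 0.212 and 0.220.

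The large subunit counts 50 members, MRPS30 and MRPS18A among them because their proteins sit there despite their names. Of these, 37 lay above and 13 below the median tested gene, with a median log2 fold change of 0.10. MRPS36 was placed in neither subunit, since its protein is known as a part of the 2-oxoglutarate dehydrogenase complex. Grouped by origin, the 44 members with a bacterial homologue had a median of 0.12 and the 32 members specific to mitochondria, MRPS27 among them, a median of 0.07. Both groups lay near the median tested gene.

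The member nearest to the threshold was MRPL24, a homologue of the bacterial protein that takes part early in large-subunit assembly. MRPL24 had 33.2, 21.3, 24.2, 25.7 and 19.4 RPKM with SRp55 siRNA, against 13.7, 9.68, 10.2, 23.6 and 14.2 RPKM with control siRNA. It was higher with SRp55 siRNA in all 5 pairs, but control library 4 lay within the SRp55 siRNA range. The means were 24.7 ± 5.33 RPKM with SRp55 siRNA and 14.3 ± 5.59 RPKM with control siRNA (SD, n = 5 each), the log2 fold change was 0.71 (SE 0.23) and the adjusted p was 0.067. Median-of-ratios scaling gave a call (adjusted p = 0.039), as did summed reads (0.021), the replicate block (0.045) and the fit without control library 4 (0.012), where the log2 fold change was 0.86. With protein_coding transcripts alone its log2 fold change was 0.24 (adjusted p = 0.71). In SRp55 siRNA library 1, 27.7 of its 33.2 RPKM were assigned to ENST00000478899.1, a 560-base transcript without a coding sequence, which had at most 0.42 RPKM elsewhere. In reads per M assigned, the 5 SRp55 siRNA libraries lay close together, at 20.9 to 21.9, and the control libraries ran between 10.6 and 21.4.

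MRPL38, which sits in the central protuberance of the large subunit, had the lowest log2 fold change after MRPS27, and its values turned on a few libraries. It had 16.6, 12.7, 13.5, 18.4 and 18.5 RPKM with SRp55 siRNA, against 24.9, 27.4, 11.6, 41.9 and 15.2 RPKM with control siRNA. The control libraries lay on both sides of the SRp55 siRNA libraries, and the log2 fold change of -0.57 (SE 0.30) had an adjusted p of 0.395. In control libraries 1 and 4, 12.7 and 33.8 RPKM were assigned to ENST00000486101.1, a transcript of 767 bases that retains an intron, and in control library 2, 18.5 RPKM were assigned to ENST00000588620.1, of 498 bases. On summed reads, where short transcripts weigh less, the log2 fold change of MRPL38 was -0.05 (adjusted p = 0.83), and with protein_coding transcripts alone it was 0.80 (adjusted p = 0.25). No direction can be given for this gene.

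Other members at the upper end were MRPL20, MRPL23, MRPL9, MRPL58 and MRPL18, with log2 fold changes of 0.40, 0.39, 0.39, 0.38 and 0.37 and adjusted p-values between 0.159 and 0.370. MRPL23 lines the exit of the peptide tunnel, and MRPL58, also known as ICT1, is a hydrolase that frees peptides from stalled ribosomes. MRPL20 had 80.8, 81.8, 76.4, 86.1 and 58.7 RPKM with SRp55 siRNA, against 66.7, 43.2, 44, 79.2 and 42.4 RPKM with control siRNA. MRPL20 was higher with SRp55 siRNA in all 5 pairs, as was MRPL18, but the groups of both overlapped. For MRPL18 the overlap came through control library 4 alone, and for MRPL20 through SRp55 siRNA libraries 3 and 5 and control libraries 1 and 4. MRPL9 was called on summed reads (adjusted p = 0.042) and MRPL18 and MRPL50 with the replicate block (0.036 and 0.046). Without control library 4 the members called higher were MRPL24, MRPL20, MRPL9 and MRPL3, at adjusted p-values of 0.012, 0.041, 0.034 and 0.033, and without SRp55 siRNA library 5 MRPL19 was called (0.047). MRPL3, whose bacterial homologue reaches towards the peptidyl transferase centre, averaged 61.4 ± 7.15 RPKM with SRp55 siRNA and 48.5 ± 13.1 RPKM with control siRNA (adjusted p = 0.225 over all 10 libraries).

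Libraries rather than groups set much of the spread of the family in RPKM. Control library 4 held the highest control value for 59 of the 76 members (77.6%), against 47.1% of all tested genes. SRp55 siRNA library 1 held the highest SRp55 siRNA value for 43 members (56.6%, against 40.3% of tested genes), and SRp55 siRNA library 5 the lowest for 48 (63.2%, against 49.8%). The family summed to 3228 RPKM in SRp55 siRNA library 1, to 2099 RPKM in SRp55 siRNA library 5, to 3075 RPKM in control library 4, and to between 1915 and 2443 RPKM in the other control libraries. In reads per M assigned the sums lay closer together. They were 3462 and 2949 in SRp55 siRNA libraries 1 and 5, and 2981 to 3154 in the other SRp55 siRNA libraries. Control library 4 had 3363 and the other control libraries 2782 to 2999. The cause of these differences was not tested. For MRPS27, leaving out any one library gave log2 fold changes between -1.31 and -1.49.

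Levels differed widely between members. Per length, the family ran between 4.25 and 108 RPKM with a median of 24.1, above the 12.7 RPKM of the median tested gene. The highest 3 were MRPL51, with 106 ± 19.6 RPKM with SRp55 siRNA and 110 ± 33.8 RPKM with control siRNA, MRPS16, with 116 ± 14.1 RPKM with SRp55 siRNA and 90.5 ± 22.5 RPKM with control siRNA, and MRPL33, with 107 ± 27.1 RPKM with SRp55 siRNA and 86.9 ± 31.8 RPKM with control siRNA. These 3 did not differ from one another beyond their spread. The lowest were MRPS17, at 4.01 ± 1.15 RPKM with SRp55 siRNA and 4.49 ± 0.669 RPKM with control siRNA, MRPL50, at 9.29 ± 0.890 RPKM with SRp55 siRNA and 7.64 ± 0.690 RPKM with control siRNA, and MRPS31, at 10.9 ± 2.05 RPKM with SRp55 siRNA and 8.88 ± 0.777 RPKM with control siRNA. With SRp55 siRNA the mean of MRPS27 fell to this end of the family, at rank 74 of 76, against rank 33 with control siRNA.

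Transcript usage, meaning how the RPKM of a gene is divided among its transcripts, in percent, could be tested for 61 members with 222 transcripts between them. None (0) was called at an adjusted p under 0.05 (limma diffSplice) together with a shift of 10 or more points, against 0.343% of 9915 genes tested. At an unadjusted p under 0.05 there were 6 members (9.84%), against 8.17% of genes. The usage of splice forms in the family was thus close to the background of all genes, and the smallest adjusted p was 0.099.

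The members with the smallest p were MRPL17, MRPL37, MRPS7 and MRPL30. They were chosen after their values were seen and are given as values. The share of all tested transcripts whose usage did not overlap was not counted, so non-overlap here has no background. MRPS7, whose bacterial homologue binds the 3′ domain of the small-subunit RNA, had 23.2%, 35.5%, 29.0%, 20.3% and 40.9% of its RPKM in ENST00000583407.1, annotated for nonsense-mediated decay, with SRp55 siRNA, against 0%, 12.9%, 13.1%, 19.5% and 3.69% with control siRNA. The groups did not overlap, by a margin of under 1 point, and the adjusted p was 0.119. Its coding transcript ENST00000245539.6 held 57.4% ± 8.50 with SRp55 siRNA and 76.3% ± 7.08 with control siRNA. MRPL37, a large-subunit protein specific to mitochondria, had 8.74%, 8.36%, 12.1%, 9.94% and 8.75% of its RPKM in ENST00000490670.1, a transcript without a coding sequence, with SRp55 siRNA, against 1.65%, 0.38%, 1.70%, 1.45% and 6.73% with control siRNA. All 5 SRp55 siRNA libraries lay above all 5 control libraries, with a shift of 7.18 points and an adjusted p of 0.118.

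MRPL17 had 5.76% ± 2.34 of its RPKM in the retained-intron transcript ENST00000529958.1 with SRp55 siRNA and 22.5% ± 16.6 with control siRNA (adjusted p = 0.099). Control libraries 1 and 2, at 6.72% and 3.81%, lay within the SRp55 siRNA range, and the other 3 control libraries far above it. MRPL30 had 33.7% ± 6.73 in ENST00000476721.1 with SRp55 siRNA and 12.7% ± 14.7 with control siRNA (adjusted p = 0.211), and control library 5, at 35.9%, lay within the SRp55 siRNA range. MRPL30 overlaps several other genes, which makes its transcripts less certain. Without a filter on low transcripts MRPS7 (adjusted p = 0.014) and MRPL17 (0.045) were called.

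**Figure D5:**
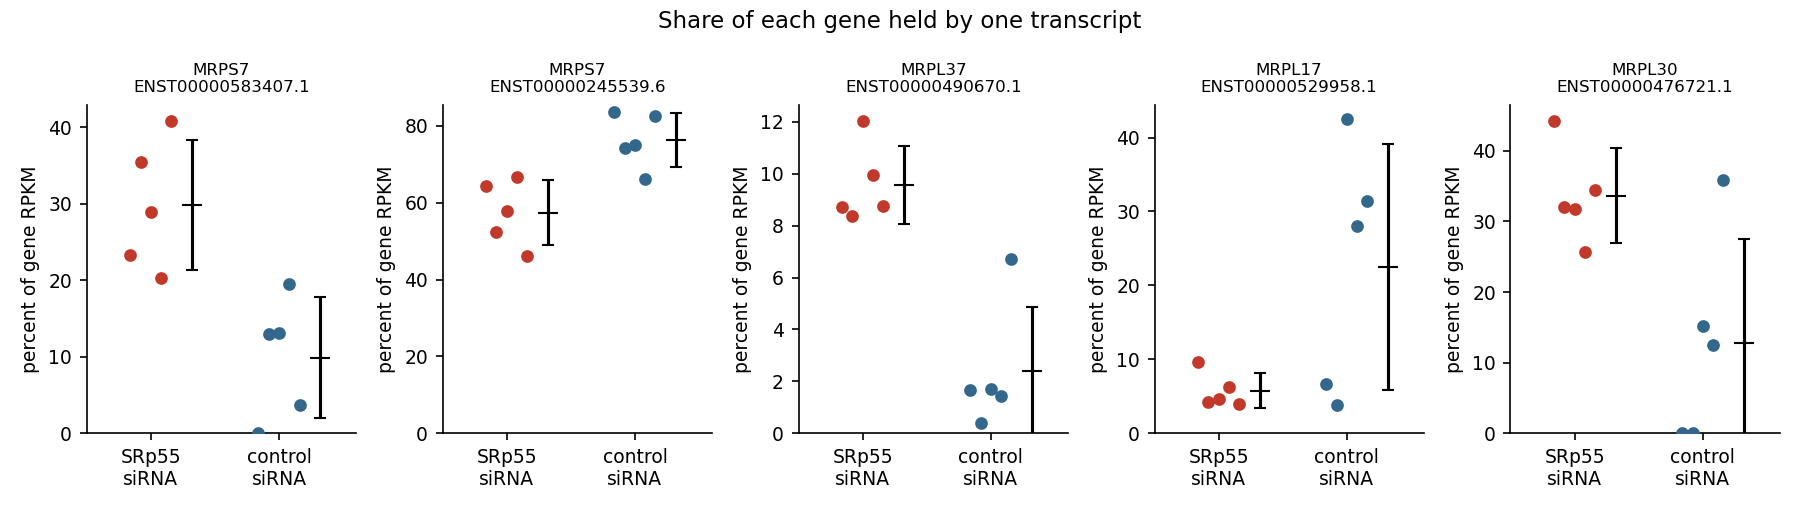
Percent of the gene's RPKM (y axis) held by 5 transcripts of MRPS7, MRPL37, MRPL17 and MRPL30, SRp55 siRNA left and control siRNA right of each panel, with dots for libraries and bars for the mean ± SD (n = 5 each), the lower end of a bar stopping at 0. The groups do not overlap for MRPS7 ENST00000583407.1 and MRPL37 ENST00000490670.1, and no gene shown was called. These genes were chosen for their small p, and the share of all transcripts without overlap was not counted.

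Summed over the family, transcripts annotated as protein_coding held 76.8% ± 0.984 of the RPKM with SRp55 siRNA and 78.9% ± 1.87 with control siRNA. Retained-intron transcripts held 6.70% ± 0.771 with SRp55 siRNA and 6.77% ± 1.32 with control siRNA, and transcripts annotated for nonsense-mediated decay held 5.97% ± 0.469 with SRp55 siRNA and 5.31% ± 0.222 with control siRNA. All of these ranges overlapped except that of 12 transcripts with no entry in GENCODE 44, which held 1.05% to 1.44% with SRp55 siRNA and 0.559% to 0.849% with control siRNA. ENST00000416782.2 of MRPS16 is one of these, with 15.1 ± 4.72 RPKM with SRp55 siRNA and 5.73 ± 4.34 RPKM with control siRNA. No test was run on these shares, and the same shares over all genes were not set beside them.

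Partners of the family in mitochondrial translation were mostly not called. The 5 mitochondrial ribosomal proteins that carry other symbols had 0 calls, and among them PTCD3, the other pentatricopeptide repeat protein of the small subunit, had 34.7 ± 8.31 RPKM with SRp55 siRNA and 37.6 ± 10.8 RPKM with control siRNA (log2 fold change -0.21, adjusted p = 0.81). DAP3, a GTP-binding protein of the same subunit, changed by 0.08 on the log2 scale (adjusted p = 0.49). Of 25 factors of ribosome assembly and ribosomal RNA modification, 0 were called, and 1 was higher and 1 lower at an unadjusted p under 0.05. MRM2, a methyltransferase of the large-subunit RNA, had 10.03 ± 1.01 RPKM with SRp55 siRNA and 12.5 ± 0.966 RPKM with control siRNA (log2 fold change -0.42, adjusted p = 0.113). It was called lower with the replicate block (0.027), median-of-ratios scaling (0.018) and summed reads (0.0030). Of 16 translation factors, 1 was higher, namely MTRF1, which is known as a release factor, with 12.9, 14.3, 15.7, 15.1 and 9.56 RPKM with SRp55 siRNA, against 10.5, 5.69, 7.88, 8.42 and 7.02 RPKM with control siRNA. Its groups overlapped through SRp55 siRNA library 5 and control library 1, and the log2 fold change was 0.63 (SE 0.17, adjusted p = 0.037). On summed reads GFM1, an elongation factor, was also called, lower (adjusted p = 0.0096).

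Of 22 enzymes that charge mitochondrial transfer RNAs, 0 were called, and 1 was higher and 1 lower at an unadjusted p under 0.05. With the replicate block GARS1 was called higher (adjusted p = 0.0499) and RARS2 lower (0.037). RARS2 was also called lower when scaled by median of ratios (0.037) and on summed reads (0.011), where QRSL1 was called lower too (0.040). Of 25 genes of mitochondrial DNA and RNA expression, 1 was called, higher, and 3 with the replicate block, which added TEFM (adjusted p = 0.012) and TWNK (0.043). At an unadjusted p under 0.05, 5 of these 25 were higher and 0 lower, against 16.4% and 5.5% of all tested genes. The gene called without the block was TFAM, which packages mitochondrial DNA and starts its transcription, at 36.6, 40.8, 36.0, 42.5 and 30.1 RPKM with SRp55 siRNA, against 24.1, 22.0, 22.3, 30.5 and 20.2 RPKM with control siRNA. All pairs were higher with SRp55 siRNA, and only SRp55 siRNA library 5 and control library 4 overlapped (log2 fold change 0.53, SE 0.14, adjusted p = 0.026). The medians of these 4 lists of partners outside the ribosome lay between -0.02 and 0.00. The 13 protein-coding genes of the mitochondrial genome were listed with 0 reads in every library, so the products of these ribosomes could not be followed.

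Shared sequence limits some of these levels. In the files' coordinates 33 members overlap another gene, 25 of them one on the opposite strand and 11 one on the same strand. GENCODE 44 names 79 pseudogenes after 34 of the members, and none (0) of these had an entry matched by ID, so reads from such copies cannot be told apart from those of the members here.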

How the data were processed

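Each of the 10 deposited files lists 155130 transcripts of 26346 genes. Per the file headers and text fields, the authors give an estimated number of reads, a length and an RPKM for each transcript, and in the files RPKM equals reads divided by length and by one total per library. Alignment used TopHat and GRCh37 (hg19), per the submitters' processing notes. Not given in the sources used here are the program that assigned reads, the annotation release and the use of strand. As both values stand in one text field, the deposited RPKM was the measure and the estimated reads an alternative, and a count model was not run.

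The RPKM of a gene's transcripts were summed. Symbols, biotypes and 3′ UTRs came from GENCODE 44, matched by Ensembl ID. Genes averaging 0.5 RPKM or more were fitted with limma 3.58.1 (R 4.3.3, trend and robust) on log2(RPKM + 0.5), and transcript usage with diffSplice on transcripts of at least 0.5 RPKM and 5% usage. Equal replicate numbers correlated in their deviations from the group means at 0.13 to 0.41, and unequal ones at 0.12 or less. The main fit left these numbers out. They were treated as pairs only in the block, an alternative, and in the comparisons within pairs. Alternatives were scaling, summed reads, the block, pseudocounts, filters, protein_coding transcripts alone and each library left out. Named members were MRPS27, called members, the 6 highest and 6 lowest log2 fold changes and the 3 highest and 3 lowest levels. MRPS27, the members and the lists were chosen with earlier results of these data known. Per the design text the preparations were independent.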

Additional observations from a re-analysis of the deposited data

Results flagged for a closer look

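Of 38 groups of 5 libraries examined for a library far from the others, 2 had one, and chance gives about 1 in 20, or 1.9 of 38. MRPL33, a homologue of a bacterial large-subunit protein, had 59.1 RPKM in SRp55 siRNA library 5, against 116 to 124 RPKM in the other 4 SRp55 siRNA libraries, and 53.0 to 132 RPKM in the control libraries. The share of MRPS27 in the summed RPKM of the family was 0.571% in SRp55 siRNA library 2, above the other 4 SRp55 siRNA libraries at 0.295% to 0.369%, and below every control library, at 0.821% to 1.29%.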

How the results depend on the processing

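MRPS27 was called lower under all 18 alternatives, with log2 fold changes between -1.19 (protein_coding transcripts alone, adjusted p = 0.015) and -1.49 (without SRp55 siRNA library 2, adjusted p = 0.0018). Over all genes tested, 684 were called, against 2340 on summed reads, 1784 with the replicate block, and 259 to 1083 with one library left out, the last without control library 4. Members called numbered 1, against 2 when scaled by median of ratios, 3 on summed reads, 4 with the replicate block, and 1 to 5 with one library left out, where 5 was without control library 4. With the replicate block, which follows the pairing of the numbers, MRPS27 had an adjusted p of 0.0091. Members with changed transcript usage numbered 0, against 2 with no filter and 0 to 1 with one library left out. MRPL17 was called without control library 1 and without control library 2, MRPS7 without control library 4, and MRPL30 without control library 5. For the other 16 named members, 278 of 288 values kept their direction and their side of the threshold, 9 passed it, and 1, MRPL38 with protein_coding transcripts alone, had the other sign (log2 fold change 0.80, adjusted p = 0.25, uncalled in both). The cause of these shifts was not tested. Depth limits low transcripts most, since a few reads move their RPKM.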
